A study of Mus musculus with 4 samples.

Results

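The genes described here encode the machinery that brings glucose into a cell and breaks it down: glucose transporters, the enzymes of glycolysis, lactate dehydrogenases and monocarboxylate transporters, the kinases that gate pyruvate dehydrogenase, enzymes of the pentose phosphate pathway, and the transcription factors Hif1a and Myc. The list holds 37 genes. The platform annotation assigned at least 1 probe set to 33 of them, 75 probe sets in all, against 18194 genes with such a probe set on the whole array. Each gene was read at the probe set with the highest mean signal over the arrays. Gpi1, Pfkfb1, Eno1 and G6pdx were not analysed here. Of the 33 genes, 32 passed the filter on dim probe sets and were tested among 12110 genes. Slc2a6 did not pass.

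The RNA came from CD4+Foxp3+ regulatory T cells (Treg cells, which hold other immune cells in check) of C57BL/6 mouse spleen, on 4 arrays. The wild-type group and the Foxo1/3-deficient group had 2 arrays each, and every numbered pair held 1 array of each. In the genotype label of the second group only Foxo1 appears, whereas the titles give both genes. The labels used here give no treatment, age, means of deletion or number of animals behind an array, so the p-values measure only the spread between these arrays.

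Foxo1 went against the label: its brightest probe set read 2383 and 1254 on the wild-type arrays of pairs 1 and 2, and 6949 and 6697 on the arrays labelled deficient (limma adjusted p = 0.0210). Foxo3 read 1876 and 2635 against 1424 and 1308 (limma adjusted p = 0.241). The labels do not place these probe sets inside or outside the deleted parts. Every direction below is therefore that of the arrays as labelled, and the second group is called labelled-deficient. Foxp3 read between 6056 and 6540 on all 4 arrays, and the 8 Treg cell markers tested had a median log2 difference of -0.08, with 1 past the threshold (Izumo1r, the folate receptor 4 gene, 1.10 higher) and 0 lower. In bulk RNA such as this, fewer cells of a type and less RNA per cell cannot be told apart.

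Glycolysis turns glucose into pyruvate and yields ATP quickly, and activated T cells are known for raising it when they start to divide. Pyruvate then leaves as lactate or enters the mitochondrion through pyruvate dehydrogenase, while the pentose phosphate branch supplies NADPH and ribose. The PI3K, AKT and mTOR pathway, HIF-1 and Myc are known to raise glycolytic genes, and FoxO factors are held out of the nucleus by AKT.

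Promoter sequences show what these genes carry next to their start sites. RefSeq windows on GRCm38.p6, from 250 bases before to 50 bases after a start, were found for 35 of the 37 genes (54 windows, since a gene can have several starts); Slc2a3 and Myc had no entry. Letters searched on both strands were TGTTTAC, the core bound by FoxO factors; CACGTG, the E-box bound by Myc; and ACGTG or GCGTG, the cores of the hypoxia response element. An E-box holds ACGTG on each strand, so those counts overlap. The 5 windows below belong to the genes with the lowest difference (Pfkp), low readings on all 3 of its probe sets (Tpi1), a difference of like size in both pairs (Pdk1), and the windows with a pair of E-boxes (Ldha) and with the FoxO core (Aldoc). Each is printed 5′ to 3′ along the gene's strand, with matches in capitals; a match on the opposite strand appears as its reverse complement, such as CACGT or CACGC.
Pfkp, chr13:6648722-6649021 (minus strand): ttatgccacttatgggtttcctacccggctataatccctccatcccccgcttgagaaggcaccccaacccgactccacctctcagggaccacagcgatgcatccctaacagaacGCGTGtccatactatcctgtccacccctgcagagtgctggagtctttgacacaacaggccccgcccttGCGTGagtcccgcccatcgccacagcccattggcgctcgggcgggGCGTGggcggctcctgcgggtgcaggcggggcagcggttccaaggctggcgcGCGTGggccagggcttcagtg
Tpi1, chr6:124814109-124814408 (minus strand): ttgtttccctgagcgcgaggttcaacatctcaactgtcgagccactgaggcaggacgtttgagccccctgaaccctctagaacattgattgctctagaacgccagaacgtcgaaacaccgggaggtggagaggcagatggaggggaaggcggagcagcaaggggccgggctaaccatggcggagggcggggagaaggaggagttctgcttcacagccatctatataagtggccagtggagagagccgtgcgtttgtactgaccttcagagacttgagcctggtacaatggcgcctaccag
Pdk1, chr2:71872974-71873273 (plus strand): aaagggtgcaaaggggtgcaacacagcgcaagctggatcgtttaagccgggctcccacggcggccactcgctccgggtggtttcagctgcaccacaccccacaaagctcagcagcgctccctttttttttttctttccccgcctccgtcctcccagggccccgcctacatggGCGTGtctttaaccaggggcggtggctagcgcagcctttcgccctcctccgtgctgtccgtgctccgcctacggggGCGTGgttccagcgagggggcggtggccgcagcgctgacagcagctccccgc
Ldha, chr7:46845554-46845853 (plus strand): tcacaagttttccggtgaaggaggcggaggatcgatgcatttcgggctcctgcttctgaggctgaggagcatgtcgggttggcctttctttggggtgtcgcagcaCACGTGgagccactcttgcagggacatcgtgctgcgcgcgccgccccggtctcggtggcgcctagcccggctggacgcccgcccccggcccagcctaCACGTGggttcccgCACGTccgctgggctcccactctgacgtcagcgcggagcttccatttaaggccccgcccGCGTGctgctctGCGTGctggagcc
Aldoc, chr11:78323948-78324247 (plus strand): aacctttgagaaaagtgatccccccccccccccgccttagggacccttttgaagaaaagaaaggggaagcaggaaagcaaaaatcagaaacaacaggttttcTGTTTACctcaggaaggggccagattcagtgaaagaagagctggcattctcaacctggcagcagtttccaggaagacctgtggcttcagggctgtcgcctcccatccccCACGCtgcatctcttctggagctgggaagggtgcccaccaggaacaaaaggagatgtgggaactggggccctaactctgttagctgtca

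The Pfkp window held GCGTG at 4 places, beginning at positions -136, -68, -23 and 30 from the start site. That of Tpi1 held none of the letters searched. In the Pdk1 window GCGTG began at -78 and -2. The Ldha window held CACGTG at -145 and -48, and the Aldoc window TGTTTAC at -148. Aldoc was the only gene of the list with the FoxO core in a window, 1 of 54 windows (1.85%) against 3.65% of all 32851 windows in the table. E-boxes stood in 7 of 54 windows (13.0% against 7.15%), those of Pfkm, Pfkfb2, Pfkfb3, Ldha, Slc16a1, Pdk2 and Hif1a. ACGTG or GCGTG stood in 42 of 54 (77.8% against 43.8%). The windows of these genes were also richer in G and C, with a median of 59.5% against 52.7%. Both hypoxia cores and the E-box hold CpG, whereas TGTTTAC is mostly A and T. Such matches describe the letters only.

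Differences between the groups were small across the list. On the log2(signal + 17) scale, on which every difference below is given as labelled-deficient minus wild-type, the 32 genes ran from -0.93 (Pfkp) to 0.93 (Myc), with a median of -0.07 against -0.00323 for all genes tested. None passed an adjusted p of 0.05 in limma's test over all genes (0 of 32), where 2.60% of all genes did (1.23% higher and 1.37% lower). At an unadjusted p under 0.05 there were 5 of 32, namely Pfkp, Tpi1, Hk2 and Aldoa lower and Myc higher, where 13.0% of all genes stood (5.98% higher and 7.04% lower). With the pair as a block 6 of 32 passed the adjusted threshold, against 11.9% of all genes (5.39% higher and 6.48% lower). Pfkp, Tpi1 and Aldoa fell, and Myc, Pdk1 and Eno3 rose. The block leaves each gene fewer residual degrees of freedom than the fit without it. Both labelled-deficient arrays lay below both wild-type arrays for 9 genes (21.1% of all genes did so) and above them for 5 (20.0%). The list's share without overlap, 43.8%, was thus near the 41.0% of all genes. Testing each of the 68 probe sets of these genes above the filter gave 0 as well (1.43% of all 22231 probe sets tested). At the brightest probe set none of the 32 reached a 2-fold difference, which 7.08% of all genes did. A dimmer Pgk1 probe set did, at -1.29.

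**Figure D1:**
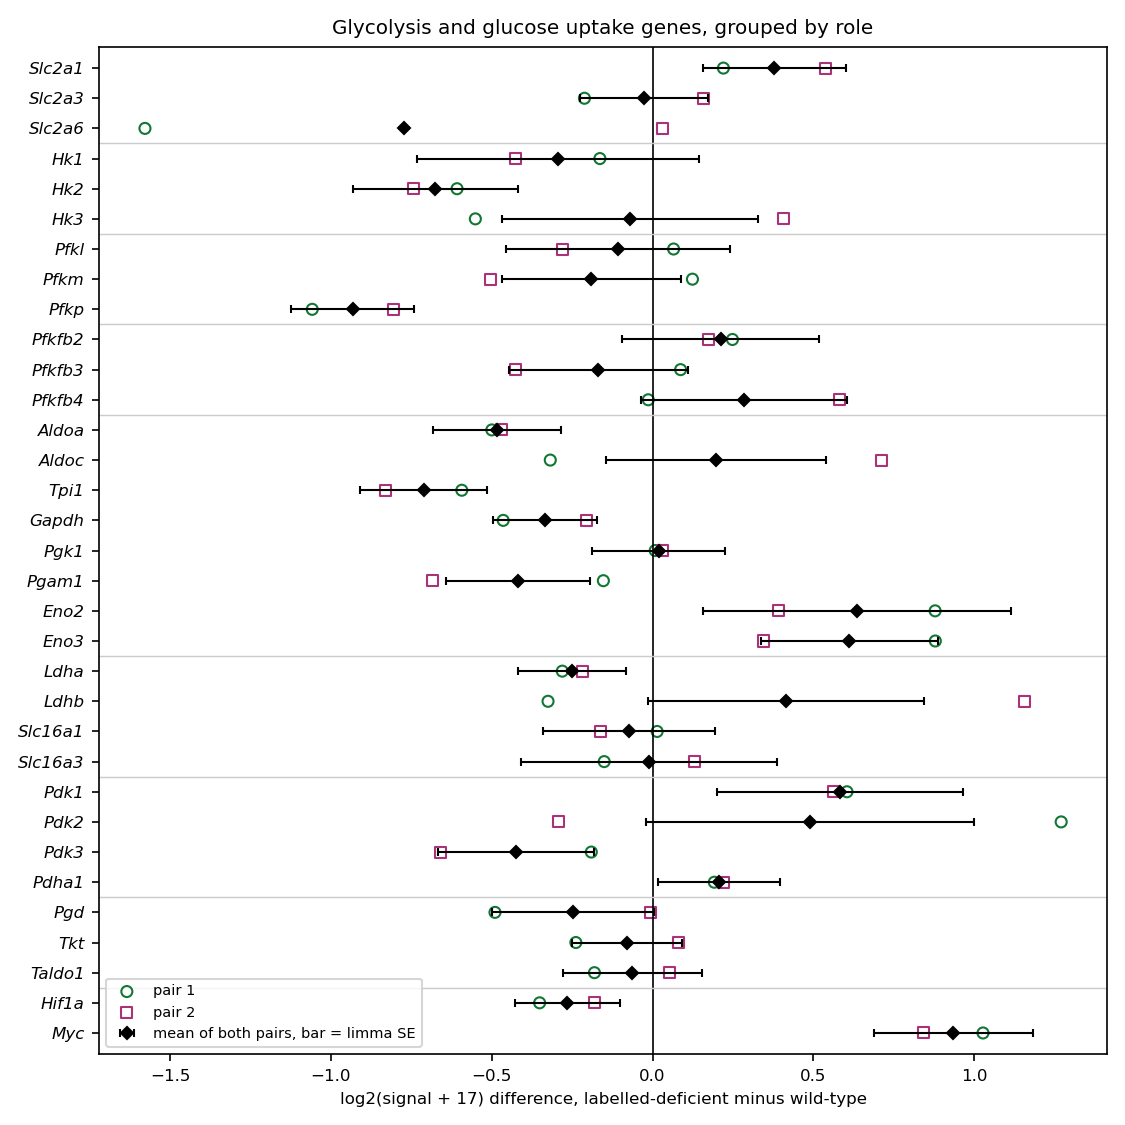
The log2(signal + 17) difference of each of the 33 genes, labelled-deficient minus wild-type, with genes in rows grouped by role. Circles and squares are pairs 1 and 2, diamonds their mean, and bars the limma standard error (none for Slc2a6, which was not tested); Pfkp (-0.93) and Myc (0.93) lie at the ends among the tested genes.

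Of the glucose transporters, Slc2a1, which encodes GLUT1, the carrier that T cells place on their surface on activation, read 1245 and 1094 (wild-type) against 1453 and 1595 (labelled-deficient). The groups did not overlap, and the difference was 0.38 ± 0.22 (SE; limma adjusted p = 0.592). Its other 2 probe sets stood at 0.28 and 0.38, the first of them at -0.02 in pair 1. Slc2a3, which encodes the high-affinity carrier GLUT3, read 6576 and 5051 against 5675 and 5639. Its groups overlapped, with differences of -0.21 in pair 1 and 0.16 in pair 2. A second Slc2a3 probe set gave -0.08, and a dim pair of sets below the filter gave 0.96 and -0.66 at signals no higher than 45.7. Slc2a6, a transporter of lysosomal membranes, was dim, at 64.4 and 45.4 against 10.3 and 46.7, and was not tested.

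Among the hexokinases, which trap glucose as glucose 6-phosphate, Hk2, the inducible form, read 535 and 594 (wild-type) against 345 and 349 (labelled-deficient). The labelled-deficient arrays were lower in each pair, by 0.61 and 0.74 on the log2 scale, for a difference of -0.67 ± 0.26 (limma adjusted p = 0.296, and 0.0658 with the pair as a block). Hk1, the constitutive form, separated the pairs rather than the genotypes, with 3204 and 2858 in pair 1 and 1659 and 1231 in pair 2. Pair 2 was lower by log2 -1.07 with genotype as a covariate (limma adjusted p = 0.000644 for the pair). Its second probe set showed the same split, at 162 and 139 in pair 1 and 31.4 and 25.9 in pair 2. Hk3, a form of myeloid cells, differed by -0.55 in pair 1 and 0.41 in pair 2.

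Phosphofructokinase sets the first committed step, and its platelet-type subunit gene Pfkp held the lowest difference of the list. It read 6391 and 6415 (wild-type) against 3060 and 3662 (labelled-deficient), ratios of 0.479 and 0.571 within the pairs. The wild-type arrays were almost equal, and both labelled-deficient arrays lay far below them. The difference of -0.93 ± 0.19 lay just outside the threshold (limma adjusted p = 0.0517) and passed with the pair as a block (limma adjusted p = 0.000353). Quantile normalization, or a filter set at the 60th percentile, also brought it past the threshold (limma adjusted p = 0.0496 each). The other Pfkp probe sets were lower in both pairs as well, at -0.28 and -0.70, and averaging all 3 gave -0.64 (limma adjusted p = 0.253).

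The liver-type and muscle-type subunits did not share this. Pfkl read 1106 and 756 against 1158 and 620.0, and Pfkm 442 and 601 against 483 and 418. Both overlapped between groups and turned sign between pairs. A dimmer Pfkl probe set went the other way in both pairs, at 193 and 190.4 against 283 and 273, a difference of 0.50. The log2 difference of Pfkp minus that of Pfkl was -1.12 in pair 1 and -0.53 in pair 2. Minus that of Pfkm it was -1.18 and -0.30. This shows unequal differences and was not tested. Pfkl also differed between pairs (log2 -0.71, limma adjusted p = 0.0295 for the pair).

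The Pfkfb genes encode the enzymes that make and remove fructose 2,6-bisphosphate, an activator of phosphofructokinase. Pfkfb2 read 142 and 167 against 172 and 190.1, without overlap, a difference of 0.21 ± 0.31 (limma adjusted p = 0.894), and its second probe set above the filter stood at -0.10. Pfkfb3, the form with the strongest kinase bias, read 826 and 781 against 879 and 578, and Pfkfb4 256 and 166 against 253 and 256. The pairs disagreed in sign for both. The second probe set of Pfkfb3, at signals of 56.6 to 86.0, stood at 0.34.

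**Figure D2:**
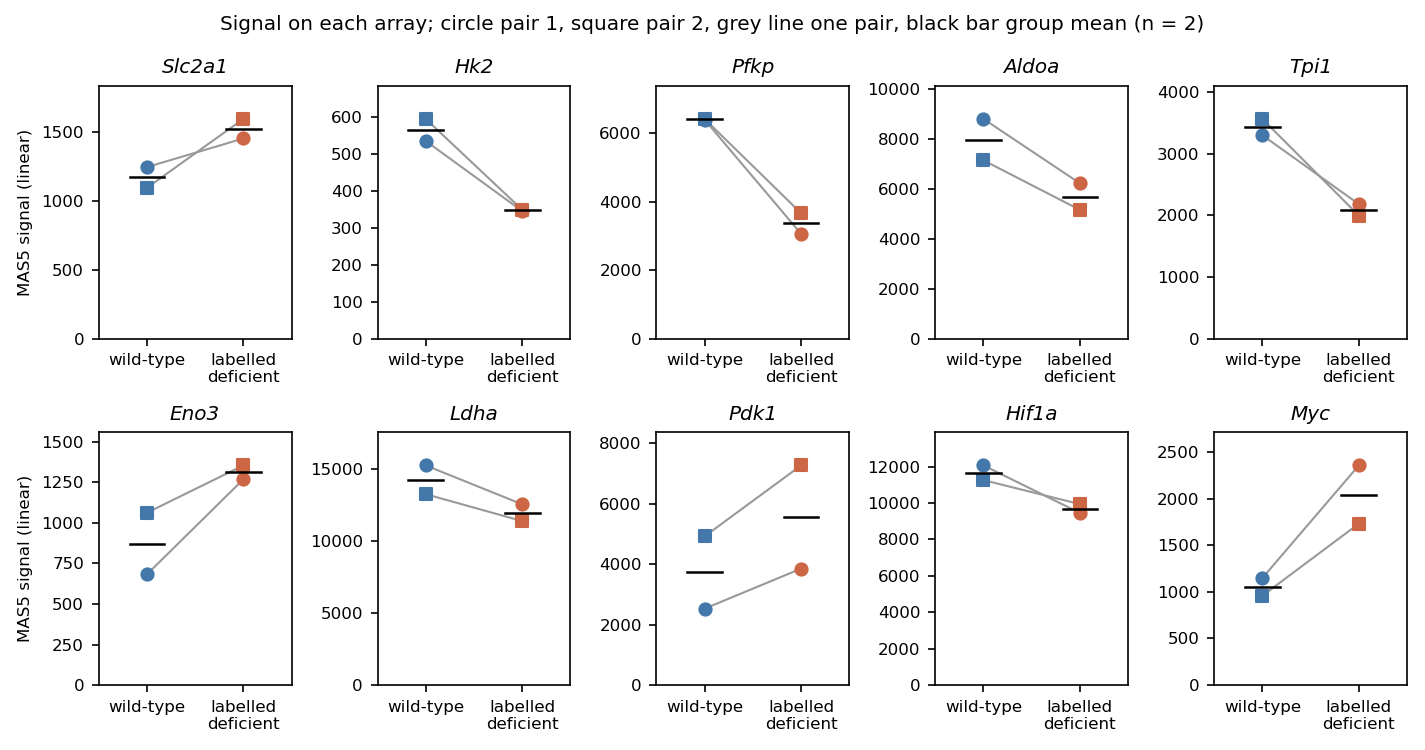
MAS5 signal (linear axis from 0) of 10 genes on the 4 arrays, circles for pair 1, squares for pair 2, grey lines joining a pair and black bars the group means (n = 2). Hk2, Pfkp, Aldoa, Tpi1, Ldha and Hif1a are lower on both labelled-deficient arrays, Slc2a1, Eno3 and Myc are higher, and Pdk1 is higher in both pairs while its groups overlap.

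From aldolase to enolase the pathway splits and oxidises the sugar, and Aldoa, Tpi1, Gapdh and Pgam1 lay lower on both labelled-deficient arrays. Aldoa, the aldolase of muscle and blood cells, read 8800 and 7141 against 6219 and 5155. The difference of -0.48 ± 0.20 passed only with the pair as a block (limma adjusted p = 0.351, and 0.0493 with the block). With the block over every probe set this probe set missed the threshold (limma adjusted p = 0.0795), and a dimmer one, at -0.60, passed it (0.0345). Of its 5 probe sets 4 were lower in both pairs, from -0.20 to -0.60, and the fifth stood at -0.04.

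Tpi1, triose phosphate isomerase, read 3299 and 3563 (wild-type) against 2181 and 1996 (labelled-deficient). Its groups were well apart, with a difference of -0.71 ± 0.20 (limma adjusted p = 0.132, and 0.00415 with the pair as a block). All 3 Tpi1 probe sets were lower in both pairs, at -0.71, -0.71 and -0.54. Aldoc, the brain-type aldolase, read 262 and 162 against 207 and 277, and its pairs disagreed.

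Gapdh, glyceraldehyde 3-phosphate dehydrogenase and a common reference gene, was lower on both labelled-deficient arrays. Its probe sets are array controls at the 3′ end, the middle and the 5′ end of the transcript. The 3′ set read 17082 and 15808 against 12376 and 13705, a difference of -0.33 ± 0.16 (limma adjusted p = 0.462), and the middle and 5′ sets stood at -0.44 and -0.36. The ratio of the 3′ to the 5′ set, a measure of RNA integrity, was 4.34 and 2.66 (wild-type) against 3.30 and 3.63 (labelled-deficient). It therefore overlapped between the groups, and in the beta-actin gene Actb it ran from 1.30 to 1.90.

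Pgk1, phosphoglycerate kinase, gave readings that depended on the probe set. Its brightest read 12965 and 16770 against 13038 and 17137, a difference of 0.02 ± 0.21 (limma adjusted p = 0.991). The second read 8047 and 10167 against 6037 and 6139, at -0.57, and the third 8901 and 5752 against 3195 and 2652, at -1.29. Neither passed when every probe set was tested (limma adjusted p = 0.267 and 0.0546), and both did with the pair as a block (limma adjusted p = 0.0460 and 0.000284), an analysis added after the data were seen. The brightest and the third carry the suffix _x_at, with which the manufacturer marks probes that may bind several transcripts, and the second does not. Of the 33 genes 7 were read at probe sets marked _x_at or _s_at, which is used for sets shared by related transcripts: Slc2a3, Hk3, Aldoa, Tpi1, Pgk1, Pgd and Tkt.

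Pgam1, phosphoglycerate mutase, read 2423 and 3193 against 2177 and 1980, without overlap, a difference of -0.42 ± 0.22 (limma adjusted p = 0.533). Of the enolases, Eno3, the muscle form, went the other way. It read 683 and 1063 (wild-type) against 1269 and 1355 (labelled-deficient), a difference of 0.61 ± 0.27 (limma adjusted p = 0.416, and 0.0393 with the pair as a block). With the block over every probe set it missed the threshold (limma adjusted p = 0.0882), and in the fit without the block the difference was 0.30 without the wild-type array of pair 1 and 0.93 without that of pair 2. The Eno3 difference was 0.88 in pair 1 and 0.34 in pair 2, and that of Pgam1 was -0.153 and -0.685. The Eno3 value exceeded the Pgam1 value by 1.03 in each pair, which was not tested. Eno2, the neuronal form, was dim, between 23.5 and 92.9, and its difference of 0.63 ± 0.48 did not pass (limma adjusted p = 0.718).

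**Figure D3:**
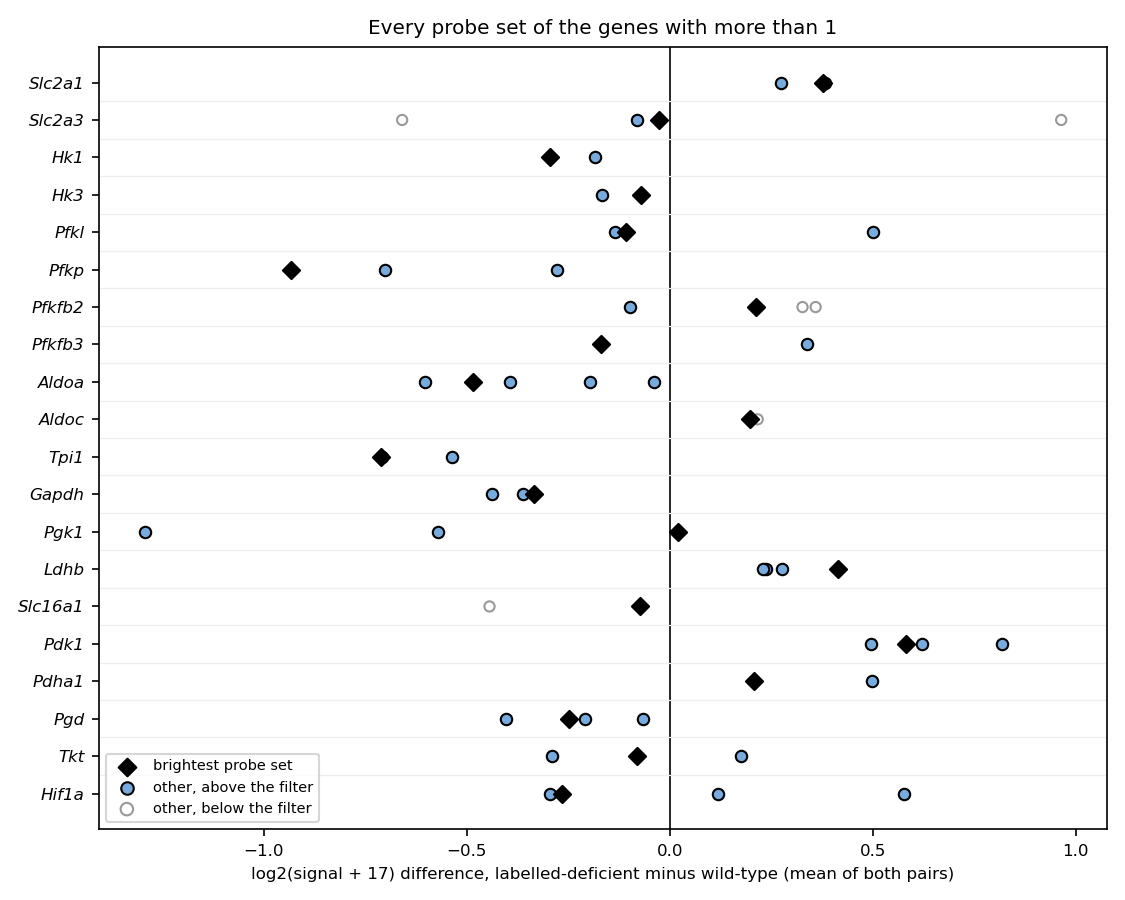
The log2(signal + 17) difference of every probe set of the 20 genes that have more than 1, as the mean of both pairs, with genes in rows. Black diamonds are the brightest probe sets, blue circles others above the filter and open circles those below it; the Pfkp and Tpi1 sets all lie below 0 and the Pdk1 sets above it, while the Pgk1 sets spread from -1.29 to 0.02.

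Pyruvate leaves the pathway through lactate dehydrogenase. Ldha, which favours lactate formation, read 15260 and 13264 (wild-type) against 12558 and 11392 (labelled-deficient). The groups did not overlap, but the difference was only -0.25 ± 0.17 (limma adjusted p = 0.663), in a gene whose window held a pair of E-boxes. The 7 genes with an E-box had differences from -0.27 to 0.49 (the dim Pdk2), and 5 lay below 0. Of all 32 tested genes of the list 20 lay below 0, and of all 12110 genes 6094 did.

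Ldhb, the form that favours pyruvate, differed in opposite directions in the pairs, at 1906 and 685 (wild-type) against 1518 and 1547 (labelled-deficient). The wild-type array of pair 2 was the low one on all 4 Ldhb probe sets. Without it the difference was -0.31, and without the wild-type array of pair 1 it was 1.14. Slc16a1, the lactate carrier MCT1, read 1497 and 2209 against 1512 and 1974, and Slc16a3, the export carrier MCT4, was dim, between 34.8 and 57.0 on all arrays. Neither separated the groups.

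The pyruvate dehydrogenase kinases switch off entry of pyruvate into the mitochondrion, and Pdha1 encodes the subunit they phosphorylate. Pdk1 read 2525 and 4916 (wild-type) against 3848 and 7261 (labelled-deficient). The labelled-deficient array was higher in each pair, with ratios of 1.52 and 1.48, but pair 2 stood above pair 1 in both genotypes by log2 0.93 (limma adjusted p = 0.00140 for the pair), so the groups overlapped. The difference of 0.58 ± 0.38 did not pass without the pair (limma adjusted p = 0.649) and rose with it as a block (limma adjusted p = 0.0149). In the fit without the block, the difference was 0.10 and 0.13 without the wild-type array of pair 1 or the labelled-deficient array of pair 2, and 1.06 and 1.04 without the other wild-type or labelled-deficient array. Of its 4 probe sets 3 were higher in both pairs.

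Pdk3 leaned the other way, at 1081 and 1192 against 945 and 748 (difference -0.42 ± 0.24, limma adjusted p = 0.576). The log2 difference of Pdk1 exceeded that of Pdk3 by 0.79 in pair 1 and 1.22 in pair 2, which was not tested. Pdk2 was dim, and 1 labelled-deficient array (97.0) stood above the other 3, which lay between 27.7 and 37.8. Pdha1 read 4274 and 3803 against 4884 and 4436, without overlap, a difference of 0.21 ± 0.19 (limma adjusted p = 0.793), and its second probe set stood at 0.50.

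The pentose phosphate genes separated the groups in none of the 3 measured. Pgd, phosphogluconate dehydrogenase, read 5865 and 6755 against 4171 and 6722. Tkt (transketolase) read 12786 and 12360 against 10834 and 13060, and Taldo1 (transaldolase) 6939 and 8188 against 6120 and 8498. The other Tkt probe sets stood at -0.29 and, for a dim one, 0.17. On these brightest probe sets the labelled-deficient array of pair 1 held the lowest reading. This held for 2 of the 3 other Pgd probe sets, whereas on the dimmest that array was the highest, at 1424 (differences of 0.33 in pair 1 and -0.46 in pair 2), and on the dim Tkt set the lowest was the wild-type array of pair 1.

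The 2 transcription factors of the list differed in direction. Myc, which drives growth and metabolic genes, read 1148 and 958 (wild-type) against 2356 and 1731 (labelled-deficient). Both labelled-deficient arrays were well above both wild-type arrays, with ratios of 2.05 and 1.81. The difference of 0.93 ± 0.25 did not pass (limma adjusted p = 0.115) and rose with the pair as a block (limma adjusted p = 0.000677). Hif1a, the oxygen-regulated subunit of HIF-1, whose protein is controlled largely by degradation, read 12064 and 11259 against 9454 and 9936. The groups did not overlap, and the difference was -0.27 ± 0.16 (limma adjusted p = 0.616). Of the other Hif1a probe sets, 1 stood at -0.30 and the dimmer 2 at 0.12 and 0.58.

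**Figure D4:**
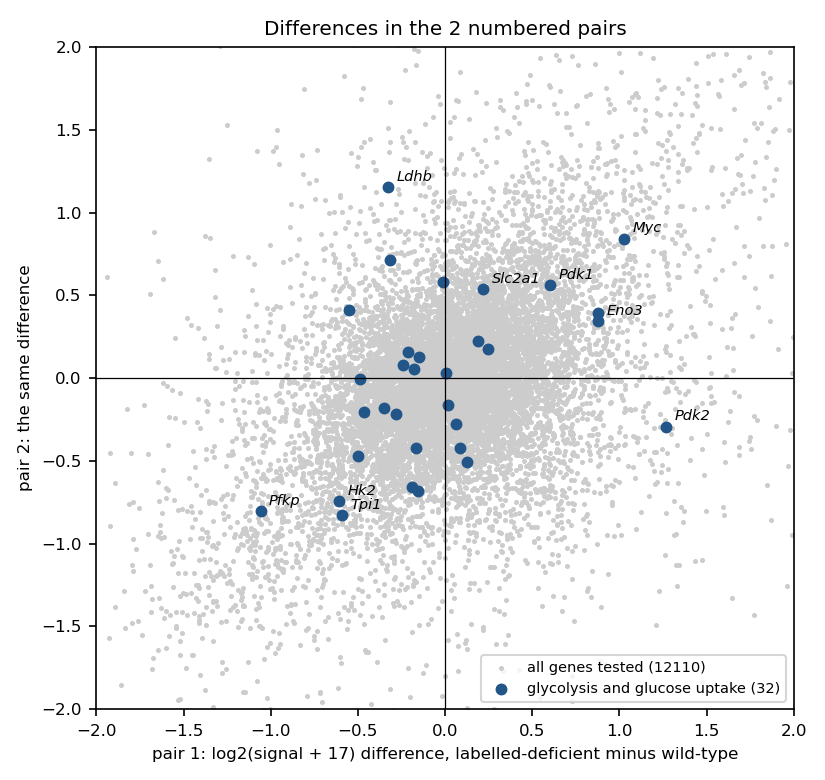
The log2(signal + 17) difference, labelled-deficient minus wild-type, in pair 1 (horizontal) against pair 2 (vertical), for all 12110 genes tested (grey; 269 lie outside the axes) and the 32 glycolysis and glucose uptake genes (blue). Pfkp, Tpi1 and Hk2 lie low in both pairs and Myc high, while Ldhb and Pdk2 lie on opposite sides of 0.

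Between the pairs, 11 of the 32 genes were lower in both (31.7% of all genes), 8 were higher in both (30.9%) and 13 had opposite signs (37.4%). The differences in pair 1 and pair 2 correlated across the 32 genes with a Pearson r of 0.393, and across all genes with 0.552; genes on the same arrays are not independent, and no test was made. Pair 2 differed from pair 1, with genotype as a covariate, for 3 of 32 genes (Hk1, Pfkl and Pdk1, by limma adjusted p) where 7.07% of all genes did. This test of the pairs was added after the data were seen.

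Genes next to these pathways were counted from separate lists. For comparison, 1.23% of all genes rose and 1.37% fell in limma, and 5.39% and 6.48% did so with the block. At an unadjusted p under 0.05 in limma, 5.98% were higher and 7.04% lower. These shares apply to every list below. Of 5 other glucose transporters tested, 1 fell: Slc2a8, which encodes the intracellular transporter GLUT8, read 219 and 176 (wild-type) against 39.3 and 26.8 (labelled-deficient). The difference was -2.11 ± 0.35 (limma adjusted p = 0.0291). Both labelled-deficient readings lay under the filter's signal of 40.5, and the gene passed the filter through its wild-type arrays, so the size of the difference is not firm: it was -2.60 without a pseudocount and -1.32 with the median as pseudocount. Without the labelled-deficient array of pair 2 its adjusted p was 0.0772, and without the filter 0.103 (limma).

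None of the 19 other enzymes of glycolysis and gluconeogenesis tested passed in limma, where 2 were higher and 0 lower at an unadjusted p under 0.05 and 2 rose with the block. Pkm, pyruvate kinase, differed by -0.22 (limma adjusted p = 0.884). Of the 10 genes of pyruvate carriage and the pyruvate dehydrogenase complex, the 11 other pentose phosphate genes and the 19 genes of the TCA cycle, 0 passed in limma. At an unadjusted p under 0.05, 1, 1 and 0 were lower, and with the block 1, 1 and 0 fell. The medians of these 4 lists lay between -0.09 and -0.02.

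Regulators showed larger single differences. Of 21 HIF pathway genes and HIF targets outside glycolysis, 2 rose and 1 fell (4 and 3 with the pair as a block). Among all genes 1.23% rose and 1.37% fell, and with the block 5.39% and 6.48%. The same shares apply to the lists below. Bhlhe40, a transcriptional repressor, fell 4.53-fold, from 2065 and 2759 to 524 and 503 (limma adjusted p = 0.00694). P4ha1, a collagen prolyl hydroxylase, rose 2.83-fold (limma adjusted p = 0.0364). Of 12 Myc network genes 1 rose, and 1 rose and 3 fell with the block. The gene was Mxi1, whose protein competes with Myc for its partner Max and which also stands in the HIF list. It read 444 and 382 against 1111 and 1092, 2.61-fold higher (limma adjusted p = 0.0333).

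Of 22 PI3K, AKT and mTOR genes 2 rose (3 with the block) and 0 fell. They were Pik3ip1, an inhibitor of PI3K (4.21-fold), and Pik3cd, the catalytic subunit of lymphocytes (2.74-fold, limma adjusted p = 0.0238). P4ha1, Mxi1 and Pik3cd missed the threshold without either labelled-deficient array (limma adjusted p between 0.0605 and 0.157), and Mxi1 also without the wild-type array of pair 2 (0.0552). On their first-listed probe sets the same 3 genes stood at 0.87, 0.996 and 1.30 (limma adjusted p = 0.360, 0.462 and 0.109). On the mean of their probe sets they stood at 1.18, 1.19 and 0.927 (limma adjusted p = 0.0515, 0.0749 and 0.0816).

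**Figure D5:**
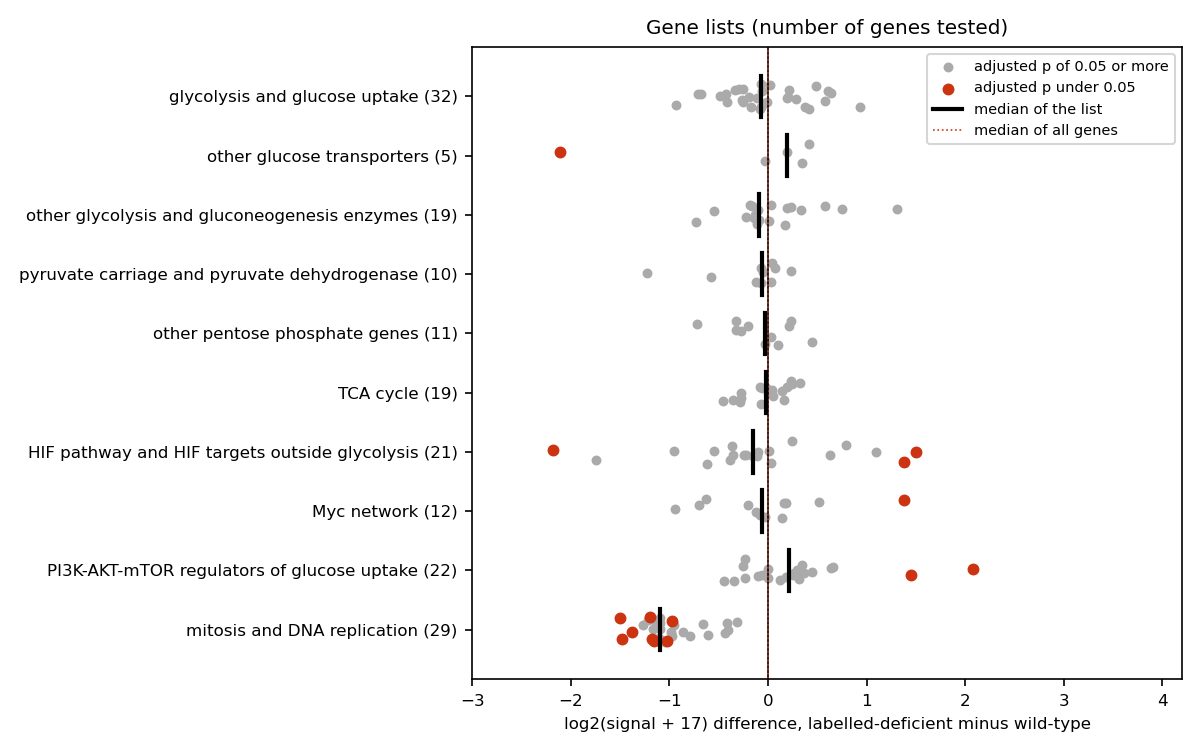
The log2(signal + 17) difference of each tested gene, labelled-deficient minus wild-type, for the glycolysis and glucose uptake genes and 9 other lists (rows, with the number tested). Red points passed limma's adjusted p of 0.05, black bars are list medians and the dotted line is the median of all genes; no glycolysis gene is red, and the mitosis list lies at a median of -1.09.

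Genes of cell division were counted as well. All 29 mitosis and DNA replication genes tested lay below 0, with a median of -1.09, and 8 fell (25 with the block). Their summed signal was 124261 and 131696 (wild-type) against 67364 and 77742 (labelled-deficient). Rrm2, Aurkb, Cdk1 and Ccna2, genes of nucleotide supply and cell division, were 2.84-fold, 2.79-fold, 2.60-fold and 2.29-fold lower. All 4 missed the threshold without the labelled-deficient array of pair 1 (limma adjusted p between 0.0726 and 0.0934). Aurkb, Cdk1 and Ccna2 did so without that of pair 2 (between 0.0783 and 0.170), and Ccna2 without the wild-type array of pair 1 (0.0746). Without the intensity trend all 4 missed it as well (limma adjusted p between 0.06 and 0.109). Rrm2, Aurkb and Ccna2 also missed it without the filter (limma adjusted p between 0.0512 and 0.0964). The part of cell division in the lower Pfkp, Tpi1, Aldoa and Hk2 readings was not tested.

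Markers of other cells were measured too. Of all genes, 5.98% were higher and 7.04% lower at an unadjusted p under 0.05 in limma, and 5.39% and 6.48% with the block. For 10 of 11 macrophage and monocyte markers tested the median was 0.70 (0 past the threshold in limma, 5 higher at an unadjusted p under 0.05, 5 with the block), and the summed signal of all 11 was 9858 and 6710 against 14010 and 11744. The CD8 T cell markers summed to 2540 and 2800 against 1029 and 1328, and 2 of 5 fell, Klrc1 and Eomes. Klrc1 read 690 and 762 against 67.5 and 92.3, and Eomes 1036 and 1425 against 356 and 310. Cd8a itself stayed between 143 and 232. Cd8b1 read 286 and 224 against 274 and 444, and Crtam 297 and 246 against 182.5 and 263. Neutrophil markers (6 of 10 tested, median -0.78, 0 past the threshold in limma, 1 lower at an unadjusted p under 0.05 and 2 with the block) summed to 1596 and 1017 against 524 and 485. B cell (6 of 8 tested), natural killer (1 of 7) and erythroid markers (4 of 8) had 0 past the threshold in limma. At an unadjusted p under 0.05 there were 0, 0 and 1, and with the block 1, 0 and 0. Their sums were 955 to 2989, 333 to 403 and 411 to 523 on the wild-type and 2063 to 3141, 229 to 373 and 441 to 617 on the labelled-deficient arrays. The part of such cells in the glycolytic readings was not tested.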

How the data were processed

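Signals were measured on 4 Affymetrix arrays. The authors deposited 1 linear intensity per probe set and array, for which the submitters' processing notes name MAS5 without a version. The arrays shared a 2% trimmed mean (500.003), and no scaling was added. The number of arrays limits the precision.

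In the platform annotation, which may be dated, a single symbol stood beside 34958 of 45101 probe sets (13 of them array controls), several beside 932 and none beside 9211. The pseudocount of 17 in log2(signal + 17) is the rounded 25th percentile (17.5); a fold change on this scale makes changes of dim genes look smaller. Probe sets with a mean log2 value under the 40th percentile (a signal of 40.5) were left out. The brightest probe set of each gene was fitted with limma 3.58.1 in R 4.3.3 (lmFit, eBayes with an intensity trend; 2 residual and 5.66 prior degrees of freedom), two-sided, with Benjamini-Hochberg adjustment over all 12110 genes. With 2 arrays a group the smallest exact permutation p is 0.333, so limma's p-values rest on variance shared between genes. The degrees of freedom given are those of the fit without the block. The block estimates a further coefficient from the same 4 arrays and leaves fewer residual degrees of freedom. The fit without the block was also run on simulated arrays, drawn from its own variance model with independent errors and no pair effect. That run could not test the block or the effect of pairing.

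The titles number the pairs, which is where the pairing comes from; deviations from the group means correlated across genes between arrays of a pair (Pearson r = 0.368). Alternatives were the pair as a block, other pseudocounts, filters, probe-set rules, quantile normalization, no trend and leaving out each array; a run without control probe sets and the block over every probe set were added after seeing the data. All members are named, and of each neighbouring list up to 4 genes past the threshold; Pkm, Foxp3, Cd8a and the marker genes were named besides. Members and lists were chosen with earlier results of these data known.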

Additional observations from a re-analysis of the deposited data

How the results depend on the processing

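The count of glycolysis and glucose uptake genes past the threshold was 0 in each direction in limma and stayed so under every alternative except 4: with the replicate block 3 rose and 3 fell, with the block over every probe set (added after seeing the data) 2 rose and 4 fell, and 1 (Pfkp) fell both under quantile normalization and under a 60th-percentile filter. Among all genes, 149 higher and 166 lower became 653 and 785 with the block, 46 and 45 without the filter, 826 and 857 when the block was fitted to all probe sets, and 58 and 55 without the intensity trend. Leaving out 1 array gave 70 to 270 higher and 82 to 259 lower, the lowest without the labelled-deficient array of pair 1 and the highest without the wild-type array of pair 1. Neighbouring pathway genes, 4 higher and 2 lower, became 9 and 9 with the block and 9 and 7 with the block over every probe set. Of these, 1 was higher without the filter, on the mean of probe sets, on the first-listed probe set and without the trend, and 1 was lower without the filter and at the 60th percentile. Without 1 array, 1 to 5 were higher and 1 to 5 lower.

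With 1 array left out, the lone array of a group is assumed to vary like the other group. Directions turned for 18 of the 32 genes somewhere. Of these only Pgk1 had a call under any alternative run, on its 2 dimmer probe sets with the block over every probe set. Slc2a3 stood at 0.016 with quantile normalization. On the mean of probe sets Pfkl stood at 0.086, Pfkfb3 at 0.0845, Pgk1 at -0.61 and Hif1a at 0.034, and on the first-listed probe set Pfkfb2 at -0.10, Pgk1 at -0.57 and Tkt at 0.17. When 1 array was left out, the log2 difference of Slc2a3 ran from -0.22 to 0.16, Hk1 from -0.90 to 0.31, Hk3 from -0.60 to 0.46, Pfkl from -0.55 to 0.33 and Pfkm from -0.41 to 0.025. That of Pfkfb3 ran from -0.46 to 0.13, Pfkfb4 from -0.0068 to 0.57, Aldoc from -0.12 to 0.52, Pgk1 from -0.18 to 0.22, Ldhb from -0.31 to 1.14 and Slc16a1 from -0.35 to 0.20. For Slc16a3 it ran from -0.27 to 0.25, Pdk2 from -0.19 to 1.16, Pgd from -0.59 to 0.095, Tkt from -0.21 to 0.055 and Taldo1 from -0.30 to 0.17. The cause was not tested, beyond the other probe set or the array left out. Dim genes (Slc2a6, Eno2, Pdk2, Slc16a3) lie near the filter.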
